A study of Rattus norvegicus with 6 samples.

Results

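Exosomes are small vesicles that form when the membrane of a late endosome buds inwards and the resulting multivesicular body later fuses with the cell surface. The genes followed here encode that machinery: the ESCRT complexes (endosomal sorting complexes required for transport), the tetraspanins that stud vesicle membranes, and scaffold and tethering proteins of the endosome. They were selected by symbol alone, as every rat gene on the array named Vps, Chmp or Tspan with a number, plus Cd9, Cd37, Cd63, Cd81, Cd82, Cd151, Tsg101, Hgs, Stam, Stam2, Pdcd6ip, Sdcbp, Snf8, Flot1 and Flot2. This gave 70 genes on 79 probes, of 15168 named genes on 30367 probes.

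RNA was measured on 1-colour Agilent arrays in primary Leydig cells of Sprague-Dawley rats, the testosterone-producing cells of the testis interstitium. All 6 samples were grown in F12/DMEM with 10% fetal bovine serum and antibiotics at 34 °C under 5% CO2. The 3 exosome samples also received exosomes released by primary rat Sertoli cells, the nurse cells of the tubule, at 5 µg/ml for 24 h, and the 3 untreated samples received none. Nothing in the labels ties the replicates to different animals or cultures, and the p-values therefore cover only the spread among these 6 samples, which may be technical. The comparison addresses how transcripts of the vesicle pathway differ in cells given vesicles of a neighbouring cell type; uptake of the vesicles was not measured on these arrays.

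ESCRT-0, ESCRT-I and ESCRT-II act in turn to gather ubiquitin-marked cargo and bend the endosomal membrane, ESCRT-III filaments cut the bud from inside its neck, and the ATPase Vps4 takes the filaments apart. Pdcd6ip (ALIX) and Sdcbp (syntenin) link syndecan cargo to ESCRT-III. Tetraspanins such as Cd9, Cd63 and Cd81 organise membrane patches and serve as marker proteins of vesicles, while flotillins mark cholesterol-rich patches. Most other Vps proteins tether or recycle endosomes: HOPS and CORVET tether them before fusion, and retromer, GARP and EARP serve the routes back to the Golgi or the surface.

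Values below are log2 intensities relative to the 75th percentile of the same array, so 0 stands for that percentile. They compare arrays for 1 probe and not probes with each other. A change is the exosome mean minus the untreated mean, given with its SE (3 arrays in each group), and adjusted p-values come from limma with Benjamini-Hochberg over all 20433 tested probes. A gene is said to rise or fall at an adjusted p below 0.05. A gene is represented by its brightest tested probe. In bulk RNA, fewer cells of a type and less RNA per cell cannot be told apart.

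The arrays differed broadly between the groups. Correlations between arrays ran from 0.984 to 0.994 within a group and from 0.969 to 0.983 between groups. Of 10979 genes tested, 43.8% passed the test, 14.6% higher and 29.2% lower, and the median change was -0.19. Each group lay in scans of its own (the untreated arrays in 1 scan, exosome 1 and 2 in another, exosome 3 in yet another), so scan and group cannot be told apart. The Leydig cell genes Insl3, Star and Hsd3b1 were well above background on all 6 arrays, whereas Lhcgr and Nr5a1 were on 0. Markers of other testis cells were also present. Summed over the tested markers, in multiples of the 75th percentile, myoid genes ranged from 35.9 to 39.8 on untreated and from 22.4 to 29.1 on exosome arrays (2 of 5 fell). Macrophage genes ranged from 19.6 to 20.6 and from 7.99 to 18.7 (4 of 9 fell). The low end came from Cd68, which read 3.15 and 3.35 on exosome 1 and 2 but -3.45 on exosome 3 and did not pass; without it, as chosen after seeing the data, the sums ranged from 9.48 to 10.5 and from 7.90 to 8.50. Sertoli cell genes ranged from 16.1 to 23.5 and from 8.85 to 11.3 (1 of 4 fell, with Amh and Gata1 on 0 arrays). Clu, the gene that fell, made up 94.7% to 98.0% of the Sertoli sum, and without it the sums overlapped, at 0.322 to 0.465 and 0.419 to 0.470. Endothelial genes ranged from 0.816 to 0.957 and from 1.16 to 1.47 (2 rose and 2 fell of 4, with Tek on 0 arrays). Leydig sums overlapped, at 75.6 to 84.8 and 74.4 to 88.1 (1 of 5 fell). The gene that fell was Cyp11a1 (-0.86 ± 0.12, adjusted p = 0.0098). Bright probes weigh most in the sum: Hsd3b1 and Star averaged 5.64 and 4.78 untreated, against 0.50 for Cyp11a1. Cyp17a1 was dim, well above background on 3 untreated and 2 exosome arrays, and did not pass. The part of these markers in the changes below was not tested.

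Vesicle-forming genes moved both ways. Of the 69 members tested, 14 rose and 21 fell, against a background of 14.6% of all genes higher and 29.2% lower. The members' shares were 20.3% and 30.4%. Their median change was -0.20 beside -0.19 over all tested genes. Arrays of the groups did not overlap in 46 of the 69, where the background is 62%. Only 3 members changed by at least 2-fold past the test, Vps72, Tspan9 and Tspan14, all lower, while the background at that size is 1.48% higher and 8.08% lower. Tspan1 alone was not tested, since it was well above background on 1 array of each group. The counts rested on single arrays: 0 rose and 5 fell without untreated 2, again 0 and 5 without untreated 3, 1 and 8 without exosome 1, and 7 and 14 without exosome 3. Quantile normalization, under which the median of all genes moved to 0.01, gave 15 members higher and 13 lower. Over all 10979 genes it gave 2210 higher and 1766 lower. Tspan9 and Vps11 fell in all 16 alternatives that rescaled, refiltered or refitted the data, and of these Vps11 did not reach the 2-fold minimum.

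**Figure D1:**
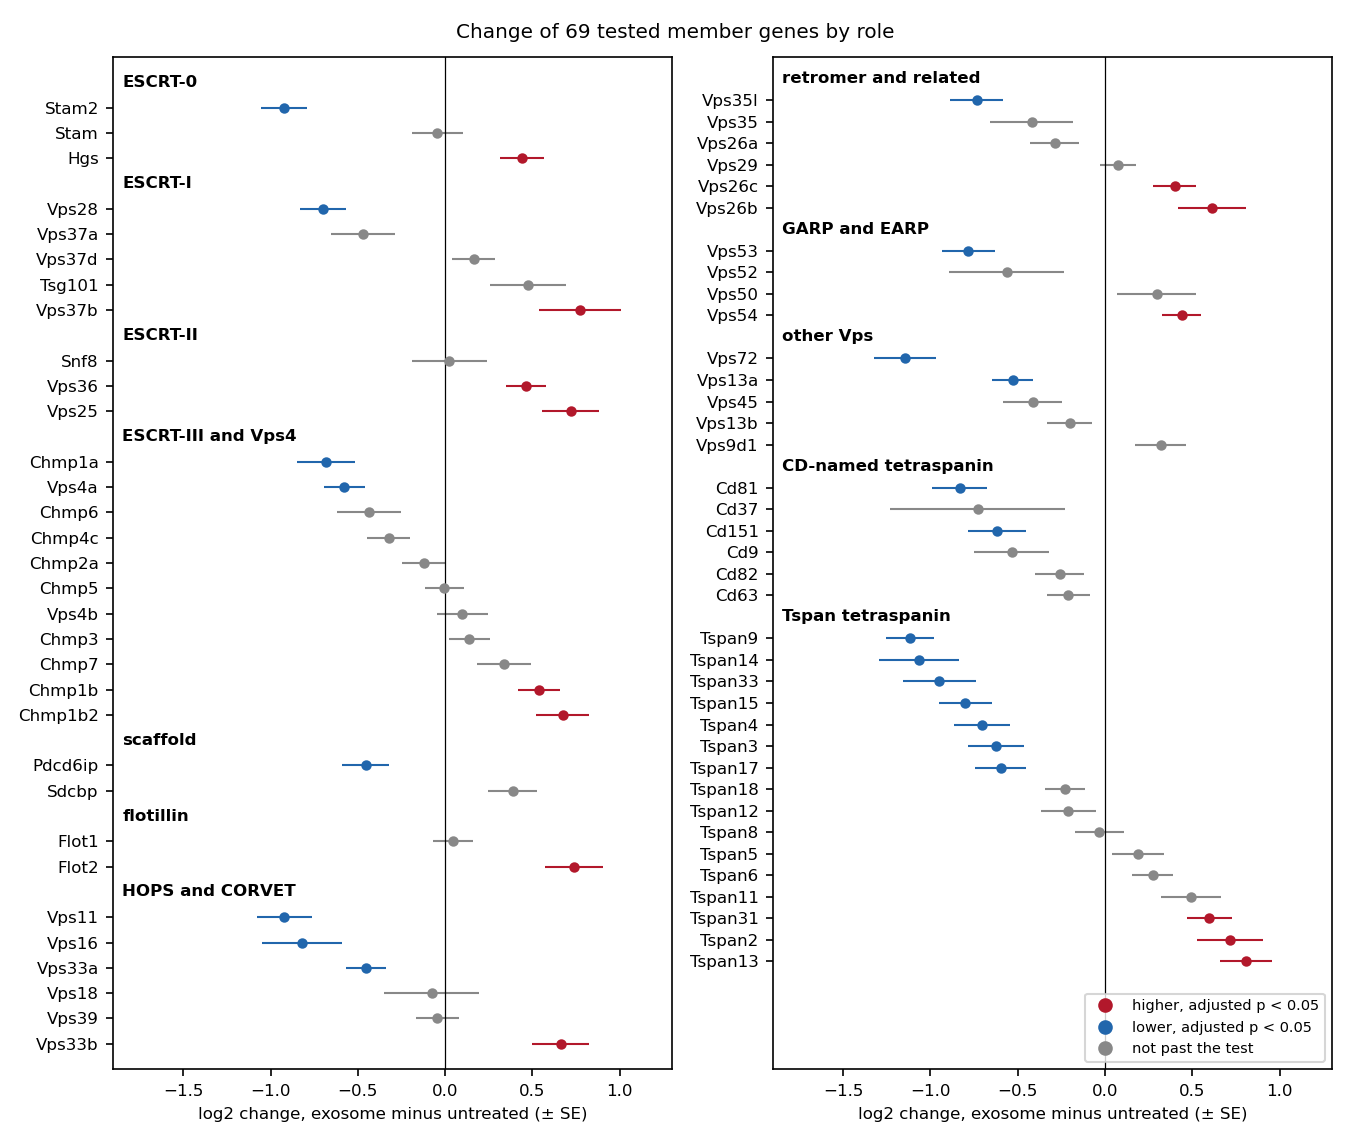
Log2 change (exosome minus untreated, horizontal axis, ± SE, n = 3 per group) of the 69 tested member genes, grouped by role, with red for genes that rose, blue for genes that fell and grey for those not past the test. Rises and falls stand side by side in most roles, while the CD-named tetraspanins lie on the lower side, from -0.83 for Cd81 to -0.21 for Cd63. The median over all tested genes was -0.19.

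The ESCRT genes, 22 in all, had 12 positive and 10 negative changes, where all 10979 genes had 4408 and 6571. Of the 22, 6 rose and 4 fell (27.3% and 18.2%, beside 14.6% and 29.2% of all genes). Their median was 0.06 beside -0.19. Quantile normalization gave 6 and 2, beside 2210 and 1766 of all genes. Median centring gave 8 and 4, beside 2756 and 1856. No ESCRT gene rose without untreated 2, untreated 3 or exosome 1. Rises over all genes dropped to 135, 212 and 374 in these fits. In ESCRT-0, which catches ubiquitin-marked cargo, Hgs rose and Stam2 fell. Hgs, the cargo-binding subunit, read 2.69, 2.61 and 2.48 without exosomes and 2.99, 2.92 and 3.19 with them. Every exosome array was above every untreated one, and the change was 0.44 ± 0.13 (adjusted p = 0.033). Stam2, a partner of Hgs, was dim, at -4.53, -4.36 and -4.40 untreated against -5.47, -5.16 and -5.43. The groups lay well apart, with a change of -0.92 ± 0.13 (adjusted p = 0.0099), but quantile normalization brought it to -0.43 (adjusted p = 0.054). The brightest probe of its paralog Stam had a change of -0.04 ± 0.15 (adjusted p = 0.83).

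In ESCRT-I the subunits went different ways. Tsg101, the ubiquitin-binding subunit widely used as an exosome marker, read -0.73, -1.18 and -1.55 untreated and -0.71, -0.78 and -0.53 after exosomes. The untreated arrays were spread out and untreated 1 reached the level of the exosome arrays, so the change of 0.47 ± 0.22 missed the test (adjusted p = 0.12, 95% interval -0.049 to 0.997). Vps28, a core subunit, was lower on every exosome array than on any untreated one. It read 3.23, 3.39 and 3.54 untreated against 2.64, 2.80 and 2.61, a change of -0.70 ± 0.13 (adjusted p = 0.012). The fall missed the test without untreated 2 or untreated 3. Vps37b, 1 of the interchangeable Vps37 subunits, rose by 0.77 ± 0.23 (adjusted p = 0.038), with values of 0.07, -0.51 and -0.80 against 0.34, 0.21 and 0.53. Its paralogs Vps37a and Vps37d did not pass (-0.47 and 0.16). The rise of Vps37b missed the test when any array but untreated 1 was left out, with values from 0.58 to 0.85. In ESCRT-II, Vps36 rose by 0.46 ± 0.12 (adjusted p = 0.023) and the brightest probe of Vps25 by 0.72 ± 0.16 (adjusted p = 0.017), while the groups overlapped for Snf8 (0.02 ± 0.22). A dimmer probe of Vps25 fell, so its place among the ESCRT rises rests on the choice of probe.

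Among ESCRT-III genes and Vps4, 2 rose and 2 fell of 11 (18.2% each, beside 14.6% and 29.2% of all genes). Chmp1b, which helps to recruit Vps4, read 0.26, 0.24 and 0.23 untreated and 0.93, 0.62 and 0.79 after exosomes. The untreated arrays were nearly level and the exosome arrays all higher, a rise of 0.54 ± 0.12 (adjusted p = 0.018). Chmp1b2, a closely related copy, rose by 0.67 ± 0.15 on its brightest probe; whether the probes of the copies share signal was not tested. Chmp1a fell by 0.68 (SE 0.17, adjusted p = 0.021) but not under quantile normalization (-0.37, adjusted p = 0.078). Vps4a fell from -1.79, -1.69 and -1.56 to -2.27, -2.18 and -2.31, with no overlap and a change of -0.58 ± 0.12 (adjusted p = 0.014). The other ATPase gene, Vps4b, read -0.36, 0.01 and 0.06 untreated and 0.03, 0.03 and -0.05 after exosomes, so the groups overlapped (0.10 ± 0.15, adjusted p = 0.61). Chmp2a, Chmp3, Chmp4c, Chmp5, Chmp6 and Chmp7 did not pass, with changes from -0.44 for Chmp6 to 0.34 for Chmp7. Chmp5 was the flattest of them, at 1.67, 1.69 and 1.82 against 1.67, 1.73 and 1.77.

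The scaffold genes parted. Pdcd6ip read -2.48, -2.81 and -2.57 untreated and -3.18, -3.06 and -2.98 after exosomes, a fall of 0.45 (SE 0.13, adjusted p = 0.036). This call was lost whichever array was left out and under quantile normalization (-0.15, adjusted p = 0.44). Sdcbp read 4.07, 4.40 and 4.32 untreated and 4.63, 4.52 and 4.80 after exosomes. All exosome arrays were higher, but the change of 0.39 ± 0.14 missed the test (adjusted p = 0.064) and passed it under quantile normalization (0.41, adjusted p = 0.045). Of the flotillins, Flot1 did not differ beyond its spread (3.50, 3.37 and 3.33 against 3.40, 3.39 and 3.55; adjusted p = 0.77). Flot2 rose from 2.39, 2.17 and 1.91 to 3.00, 2.71 and 2.97, a change of 0.74 ± 0.16 (adjusted p = 0.017).

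Of 22 tetraspanins tested, 3 rose and 9 fell (13.6% and 40.9%, beside 14.6% and 29.2% of all genes). Quantile normalization gave 4 and 8, and median centring 5 and 6. Over all 10979 genes these scalings gave 2210 higher and 1766 lower, and 2756 and 1856. The counts of the whole array thus moved with the scaling too. Their median change was -0.40 beside -0.19 over all genes, and -0.21 beside 0.01 under quantile normalization. All 6 CD-named tetraspanins had negative changes, as did 6571 of all 10979 genes. The exception was Cd63, which turned to 0.02 when arrays were centred on their median. Of the 6, 2 fell (33.3%, beside 29.2% of all genes). The median of the 6 was -0.58 beside -0.19, and -0.31 beside 0.01 under quantile normalization. Cd81, a partner of immunoglobulin-family membrane proteins and a standard vesicle marker, read 3.59, 3.77 and 3.92 untreated and 2.87, 3.16 and 2.74 after exosomes. The groups were clearly apart, with a change of -0.83 ± 0.16 (adjusted p = 0.012). Cd151, which binds laminin-receptor integrins, fell from 1.55, 1.80 and 2.04 to 1.098, 1.37 and 1.07, a change of -0.62 ± 0.17 (adjusted p = 0.028). It missed the test under median centring (-0.39).

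The other vesicle markers of this family did not pass. Cd63, the tetraspanin of late endosomes and multivesicular bodies, read 5.13, 5.33 and 5.42 untreated and 5.08, 5.04 and 5.14 after exosomes. The groups met at untreated 1 and exosome 3, and the change was -0.21 ± 0.12 (adjusted p = 0.20, 95% interval -0.51 to 0.08). Cd9 read -0.81, -0.29 and -0.07 against -1.08, -0.71 and -0.98, where untreated 1 lay below exosome 2, and its change was -0.54 ± 0.22 (adjusted p = 0.086). Cd82 had a change of -0.26 ± 0.14 (adjusted p = 0.17). Cd37, a tetraspanin of leukocytes, was near background and scattered, at -4.70, -5.54 and -4.79 against -5.51, -4.89 and -6.83, and was well above background on 3 untreated and 2 exosome arrays (-0.73 ± 0.50, adjusted p = 0.27). The other leukocyte tetraspanin, Cd53, rose by 0.66 ± 0.15 (adjusted p = 0.017), whereas the macrophage markers gave 0 rises and 4 falls of 9.

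**Figure D2:**
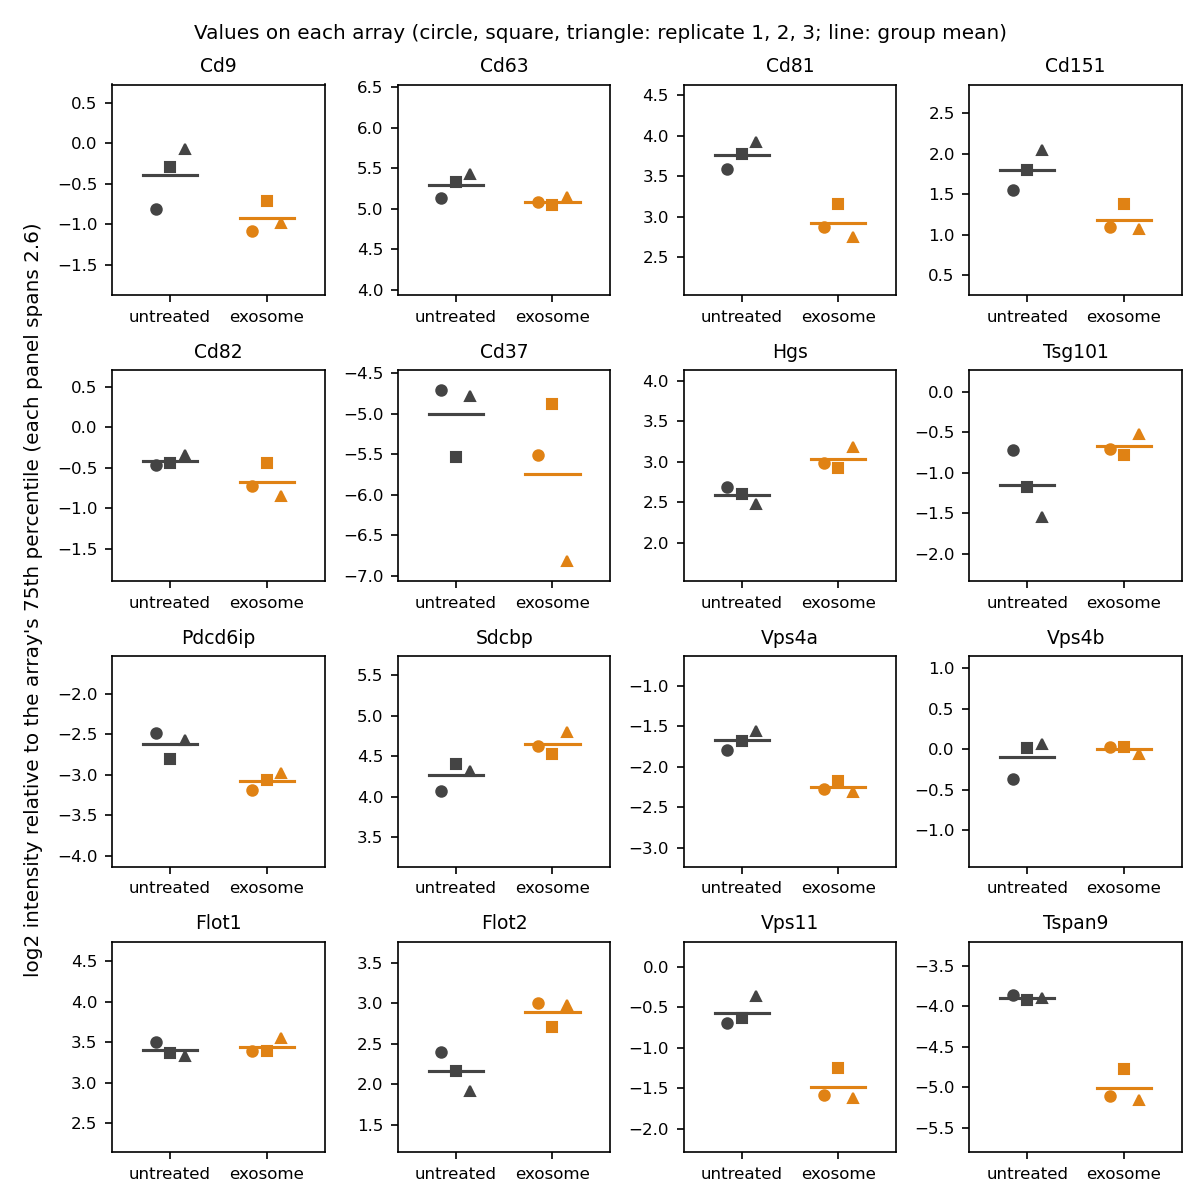
Log2 intensity relative to the array's 75th percentile (vertical axis, each panel spanning the same range) on the 3 untreated (grey) and 3 exosome arrays (orange) for 16 member genes; lines are group means. The groups are apart for Cd81, Cd151, Hgs, Pdcd6ip, Vps4a, Flot2, Vps11, Tspan9 and Sdcbp, and overlap for Cd9, Cd63, Cd82, Cd37, Tsg101, Vps4b and Flot1.

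Of 16 Tspan genes tested, 3 rose and 7 fell (18.8% and 43.8%, beside 14.6% and 29.2% of all genes). Median centring gave 5 of each and a median change of 0.01. Over all 10979 genes it gave 2756 higher, 1856 lower and a median of 0.04. Tspan9 read -3.86, -3.93 and -3.90 untreated and -5.11, -4.77 and -5.15 after exosomes. The untreated arrays were nearly level and all exosome arrays lower, a change of -1.12 ± 0.14 (adjusted p = 0.0098). It passed in all 16 alternatives and at the 2-fold minimum, but its change under quantile normalization was -0.67, short of 2-fold. Its brightest probe lay in the dimmest tertile of tested genes, where 38.7% of all genes fell. Its dimmer probe, above background on 2 arrays of each group, gave -0.43 ± 0.31 (adjusted p = 0.28). Tspan4, a component of migrasomes, fell by 0.71 (SE 0.16) and Tspan3 by 0.62 (SE 0.16).

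Tspan14 read -0.63, -0.73 and -0.73 untreated and -2.04, -2.01 and -1.24 after exosomes. Exosome 3 fell less than the others, but the groups did not overlap (-1.07 ± 0.23, adjusted p = 0.016). Of the other Tspan genes, Tspan33 fell by 0.95 (SE 0.21), Tspan15 by 0.80 (SE 0.15) and Tspan17 by 0.60 (SE 0.14), while Tspan5 did not pass (0.19 ± 0.15). Quantile normalization left Tspan33 short of the test (-0.41, adjusted p = 0.13).

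The rises were those of Tspan13, Tspan2 and Tspan31, all read by probes of the manufacturer's A_64 series. The Tspan genes that fell, apart from Tspan14, and all CD-named tetraspanins were read by probes named A_42 to A_44. The part of the probe series in these directions was not tested. Tspan13 had the largest rise of the members at this scaling and under quantile normalization, from -1.07, -1.23 and -1.24 to -0.41, -0.58 and -0.14, with no overlap and a change of 0.81 ± 0.15 (adjusted p = 0.012). Tspan2 rose by 0.72 ± 0.19 (adjusted p = 0.027), and Tspan31 by 0.60 ± 0.13 (adjusted p = 0.016), from nearly level untreated values of 3.01, 2.98 and 2.99. Tspan6, Tspan8, Tspan11, Tspan12 and Tspan18 did not pass, with changes from -0.23 for Tspan18 to 0.49 for Tspan11.

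The endosomal tethers of HOPS and CORVET, which share a core of Vps11, Vps16, Vps18 and Vps33a, were grouped with Vps33b. These 6 genes gave 1 rise and 3 falls (16.7% and 50%, beside 14.6% and 29.2% of all genes). Quantile normalization gave 1 and 1, beside 2210 and 1766 of all 10979 genes. The rise was that of Vps33b and the falls were those of core genes. Vps11 read -0.70, -0.64 and -0.36 untreated and -1.58, -1.26 and -1.63 after exosomes. The groups were far apart, with a change of -0.92 ± 0.16 (adjusted p = 0.011), and the fall passed in all 16 such alternatives but not at the 2-fold minimum. Vps16 fell by 0.82 (SE 0.23, adjusted p = 0.031) and Vps33a by 0.45 (SE 0.12, adjusted p = 0.024), and both missed the test under quantile normalization (-0.44 and -0.19). Vps16 lay in the dimmest tertile of tested genes, where 38.7% of all genes fell. Vps18 and Vps39 did not pass (-0.08 and -0.04). Vps33b, a paralog of Vps33a that works outside HOPS, rose by 0.66 ± 0.16 (adjusted p = 0.022), with values of 0.01, -0.24 and -0.33 against 0.48, 0.25 and 0.70.

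In RefSeq 60 promoters of members were found (build GRCr8, 250 bases before to 50 after the start of the gene). Chmp2a had more than 1 of them, and the untested Tspan1 was included. The promoters were searched on both strands for CACGTG, the core of the element bound by TFEB, a regulator of lysosomal genes. It stood in 10 of the 60 (16.7%), against 8.62% of 9447 promoters of tested genes and 6.42% of all 33469. The longer form TCACGTG, which contains CACGTG, stood in 9 (15%), against 5.01% and 3.20%. The 10 were Cd63, Chmp1b2, Pdcd6ip, Vps11, Vps16, Vps26a, Vps26c, Vps33a, Vps37b and Vps50, of which 4 fell, 3 rose and 3 did not pass, so the letters went with no single direction. A match is not evidence of a bound site. The 3 HOPS core genes that fell are shown first and 2 members that rose after them, with CACGTG in capitals. Their positions in GRCr8 are chr8:53595328-53595627 (minus strand) for Vps11, chr3:138075460-138075759 (plus strand) for Vps16, chr12:38685274-38685573 (plus strand) for Vps33a, chr12:38220723-38221022 (plus strand) for Vps37b and chr11:47310996-47311295 (minus strand) for Vps26c. Vps11 and Vps33a hold the motif 2 times each and the others 1 time.
Vps11: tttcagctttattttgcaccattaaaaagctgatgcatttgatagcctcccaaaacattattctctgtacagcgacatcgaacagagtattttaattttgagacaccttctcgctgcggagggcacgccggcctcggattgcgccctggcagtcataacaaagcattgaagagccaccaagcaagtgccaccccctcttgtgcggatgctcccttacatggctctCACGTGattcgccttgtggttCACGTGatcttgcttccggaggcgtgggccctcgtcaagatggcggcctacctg
Vps16: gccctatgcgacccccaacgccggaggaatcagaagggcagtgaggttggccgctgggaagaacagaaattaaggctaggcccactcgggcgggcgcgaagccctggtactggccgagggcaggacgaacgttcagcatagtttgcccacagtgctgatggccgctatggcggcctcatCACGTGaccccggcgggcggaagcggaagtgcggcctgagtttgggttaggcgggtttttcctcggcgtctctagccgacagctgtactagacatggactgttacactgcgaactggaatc
Vps33a: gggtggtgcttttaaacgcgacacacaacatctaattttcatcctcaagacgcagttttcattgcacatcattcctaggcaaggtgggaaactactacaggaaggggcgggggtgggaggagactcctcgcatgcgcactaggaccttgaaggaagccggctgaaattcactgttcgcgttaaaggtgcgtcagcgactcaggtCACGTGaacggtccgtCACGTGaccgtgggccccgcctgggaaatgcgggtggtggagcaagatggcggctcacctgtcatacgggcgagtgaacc
Vps37b: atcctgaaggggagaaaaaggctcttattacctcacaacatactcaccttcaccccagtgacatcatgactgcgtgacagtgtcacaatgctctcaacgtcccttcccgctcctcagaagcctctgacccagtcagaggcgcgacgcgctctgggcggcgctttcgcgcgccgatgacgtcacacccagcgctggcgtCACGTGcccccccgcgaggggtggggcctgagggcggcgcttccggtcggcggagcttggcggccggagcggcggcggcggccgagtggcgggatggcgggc
Vps26c: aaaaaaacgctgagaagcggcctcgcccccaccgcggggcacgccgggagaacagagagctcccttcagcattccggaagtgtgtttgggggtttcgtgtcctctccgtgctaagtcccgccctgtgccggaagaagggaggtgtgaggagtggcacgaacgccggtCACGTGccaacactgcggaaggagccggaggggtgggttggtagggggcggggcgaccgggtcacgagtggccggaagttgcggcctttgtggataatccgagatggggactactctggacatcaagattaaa

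Among genes of retromer and the related retriever complex, which return receptors from endosomes, 2 of 6 rose and 1 fell. These shares were 33.3% and 16.7%, beside 14.6% and 29.2% of all genes. The retriever subunits parted: Vps35l fell from 1.51, 1.67 and 1.78 to 0.88, 1.15 and 0.73 (-0.73 ± 0.15, adjusted p = 0.015), and Vps26c rose from 2.56, 2.56 and 2.53 to 2.90, 2.82 and 3.13 (0.40 ± 0.12, adjusted p = 0.042). The rise of Vps26c missed the test when any array but exosome 2 was left out. The fall of Vps35l missed it without untreated 2, untreated 3 or exosome 1. In retromer itself Vps26b rose by 0.62 ± 0.19 (adjusted p = 0.044), but not under quantile normalization (0.58, adjusted p = 0.059). This rise was lost when any array but untreated 1 was left out. Vps26a, Vps29 and Vps35 did not pass (-0.29, 0.07 and -0.42). The GARP subunits Vps53 and Vps54 moved in opposite directions. Vps53 fell from -0.33, -0.10 and -0.02 to -0.98, -0.72 and -1.09 (-0.78 ± 0.15, adjusted p = 0.013), while Vps54 rose from -1.20, -1.15 and -1.24 to -0.65, -0.83 and -0.80 (0.44 ± 0.11, adjusted p = 0.024). Vps52, shared with EARP, and Vps50, the subunit of EARP, did not pass (-0.56 ± 0.33 and 0.30 ± 0.23).

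Of the remaining Vps genes 2 of 5 fell (40%, beside 29.2% of all genes). Vps72, whose protein is a histone chaperone of the nucleus and not an endosomal protein, had the largest fall of the members at this scaling, though not under quantile normalization, where Tspan14 had it (-0.93). It read -3.91, -4.47 and -4.17 untreated against -5.15, -5.35 and -5.49, a change of -1.15 ± 0.18 (adjusted p = 0.010). Quantile normalization brought it to -0.66 (adjusted p = 0.063), short of the test. Vps13a, a lipid-transfer protein, fell by 0.53 (SE 0.12, adjusted p = 0.017), but under quantile normalization its change was -0.02. Vps13b, Vps45 and Vps9d1 did not pass (-0.20, -0.41 and 0.32).

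**Figure D3:**
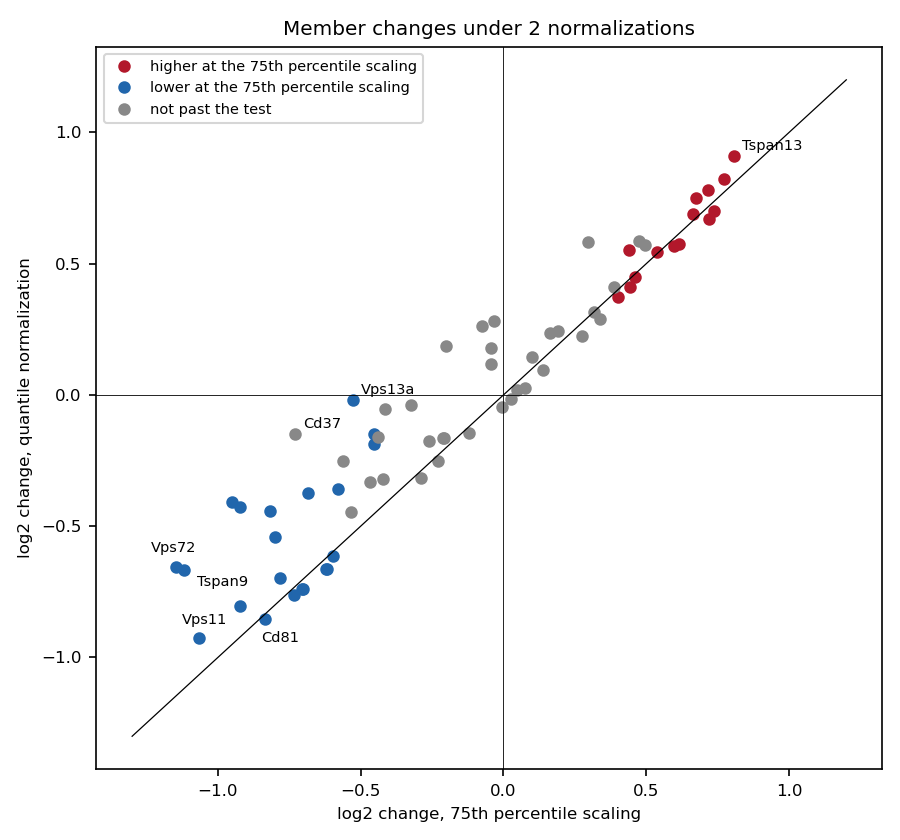
Log2 change of the 69 tested member genes when arrays were scaled on the 75th percentile (horizontal axis) and when they were quantile normalized (vertical axis); the diagonal marks equal values and colours give the call at the 75th percentile scaling. The rises lie along the diagonal, while several falls move towards 0, as Vps13a does from -0.53 to -0.02 and Tspan9 from -1.12 to -0.67.

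The direction of members went with the brightness of the probe, as it did over the whole array. In the dimmest tertile of tested genes 0 of 11 members rose and 6 fell (3.91% and 38.7% of all genes there). In the brightest tertile 10 of 32 members rose and 7 fell (24.4% and 15.6% of all genes). Quantile normalization reduced the contrast at the dim end: in the dimmest tertile 0 members rose and 1 fell, with 11.7% and 12.5% of all genes. In the brightest tertile 10 members still rose and 7 fell, with 25.5% and 14.8% of all genes. Direction also went with the probe series of the manufacturer. Of 23 members read by probes named A_64, 10 rose and 5 fell, and of 46 read by probes named A_42 to A_44, 4 rose and 16 fell. Over all genes the shares were 16.5% higher and 25.5% lower for A_64, and 13.0% and 32.2% for A_42 to A_44. In the brightest tertile alone, 8 of 11 A_64 members rose (28.7% of all genes there) and 2 of 21 A_42 to A_44 members did (20.9%). Quantile normalization gave the same member counts there, beside 29.8% and 22% of all genes. The part of brightness and of probe series in these changes was not tested.

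**Figure D4:**
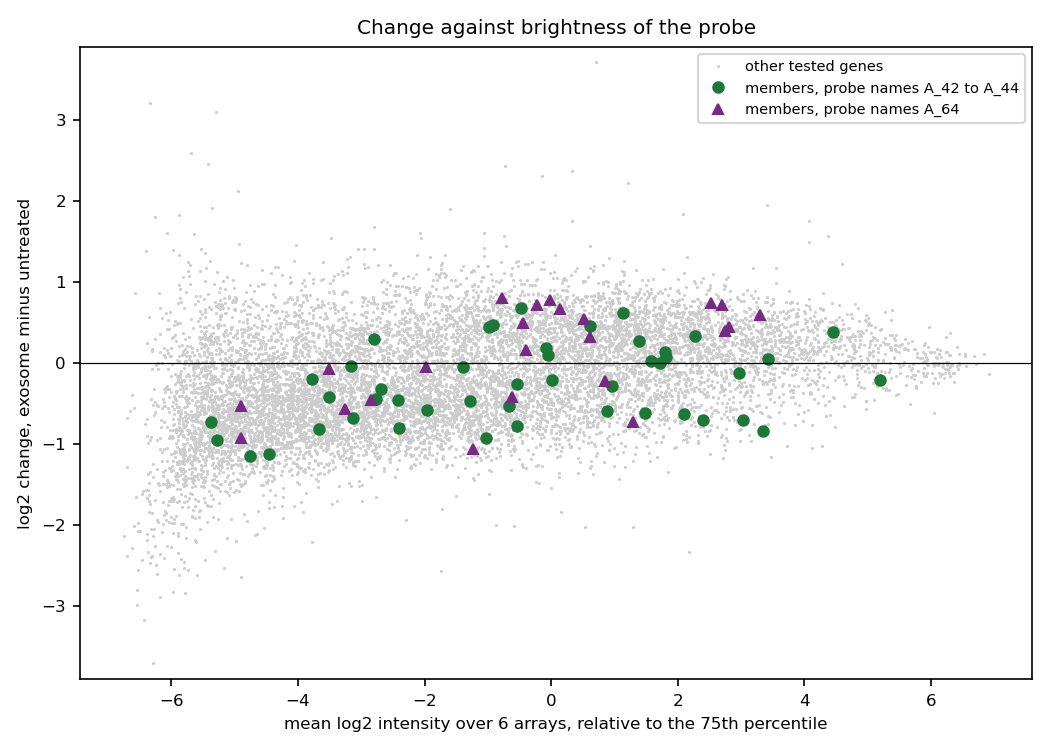
Log2 change (exosome minus untreated, vertical axis) against mean log2 intensity over the 6 arrays relative to the 75th percentile (horizontal axis), with all tested genes in grey, members on A_42 to A_44 probes as circles and members on A_64 probes as triangles. None of the 11 members in the dimmest tertile of tested genes rose, and 10 of the 14 rises lie in the brightest.

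Probes of 1 gene often disagreed. Of the 69 members 8 had more than 1 tested probe, and in 4 of these the probes had opposite signs. In 7 of the 8 every other probe had a lower change than the brightest one. For Vps25, ESCRT-II's outer subunit, both probes passed in opposite directions: the brighter one (A_64_P127516) read 2.55, 2.28 and 2.20 untreated and 3.09, 2.84 and 3.26 after exosomes, and the dimmer one (A_64_P044593) read -0.88, -0.74 and -0.41 against -1.70, -1.36 and -1.95. The dimmer probe fell by 0.99 (SE 0.20, adjusted p = 0.014), and the mean of both probes gave -0.14, so the array does not settle the direction of Vps25. In Stam, Chmp7, Tspan11 and Vps13b the brightest probe did not pass while the dimmer one fell, by 0.97, 0.81, 0.62 and 0.99. The second probe of Chmp1b2 gave -0.33 ± 0.12 (adjusted p = 0.059) where the first rose. Pdcd6ip alone of the 8 had probes that all passed in the same direction, and its 3 probes fell by 0.45, 0.69 and 0.70. The remaining 61 members rested on 1 tested probe.

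**Figure D5:**
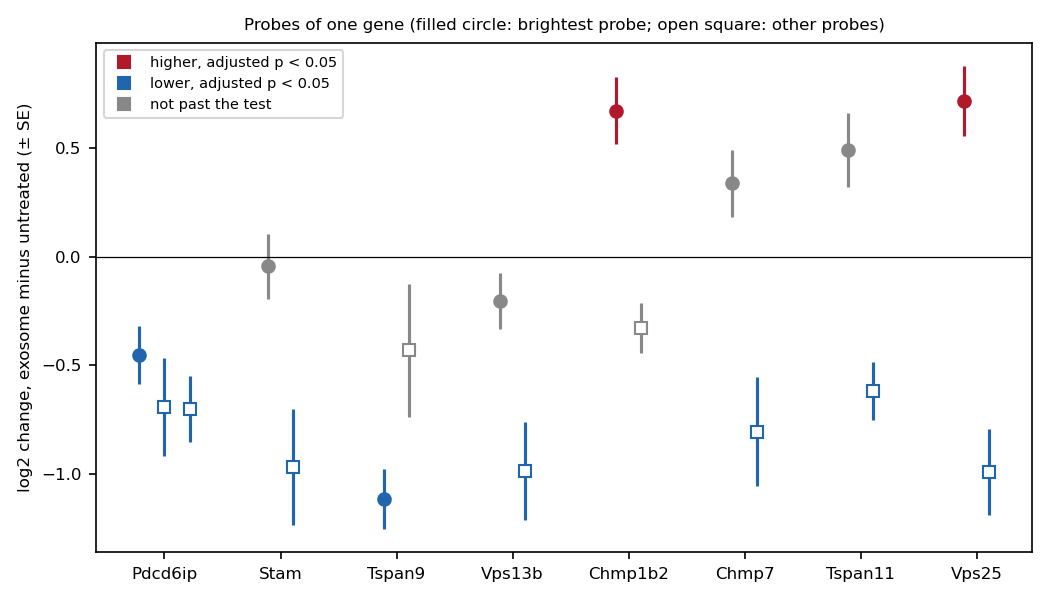
Log2 change (exosome minus untreated, vertical axis, ± SE) of every tested probe of the 8 members with more than 1, with the brightest probe as a filled circle and the others as open squares, coloured by call as in the plot by role. The probes of Vps25 stand on opposite sides of 0, and those of Pdcd6ip all lie below it.

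Pathway genes outside the symbol rule were also measured, from a list of regulators of vesicle release, syndecans and ESCRT partners. Of 37 tested, 3 rose and 12 fell (8.11% and 32.4%, beside 14.6% and 29.2% of all genes). Quantile normalization gave 5 and 7, beside 2210 and 1766 of all 10979 genes. Rab27a, the GTPase that docks multivesicular bodies at the plasma membrane, rose by 0.69 ± 0.14 (adjusted p = 0.013), from -1.50, -1.60 and -1.70 to -0.90, -1.09 and -0.74. Sytl4, an effector of Rab27, fell by 1.25 (SE 0.14, adjusted p = 0.0098), from -3.77, -3.83 and -3.73 to -4.93, -5.28 and -4.87. In neither gene did the groups overlap. Snap23, a membrane fusion protein of the cell surface, rose by 0.96 ± 0.15 (adjusted p = 0.010). Ubap1, a further ESCRT-I subunit, fell by 0.77 (SE 0.14), Ptpn23, an ALIX-related partner of ESCRT, by 0.87 (SE 0.13), and the lysosomal membrane protein gene Lamp1 by 0.98 (SE 0.20). The syndecan genes Sdc2, Sdc3 and Sdc4, named after their values were seen, fell by 0.85, 0.96 and 0.61, while Sdc1 did not pass (0.05 ± 0.12, adjusted p = 0.77). Rab27b was on 0 arrays. Without untreated 2 the list gave 1 rise and 2 falls, and without untreated 3 it gave 1 and 3. Without exosome 1 it gave 2 and 4, and without exosome 3 it gave 2 and 7. The counts over all genes dropped in the same fits, to 135 higher and 819 lower without untreated 2. Of 4 tested tetraspanins named by other symbols, Cd53 and Upk1b rose and Rom1 fell, though a dimmer probe of Upk1b fell by 1.27 (SE 0.18).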

How the data were processed

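Per the labels, total RNA was extracted with TRIzol, amplified, labelled with Cy3 and hybridised to 1-colour Agilent arrays, 1 per sample. The array files, as the authors deposited them, come from Agilent Feature Extraction 11.0.1.1 (per the submitters' processing notes) and give the intensity of 44254 spots, per the file headers background-subtracted and detrended within the array and not normalized between arrays. Deposited median spot and background intensities served the normexp alternative. The authors' deposited table of log2 values, with 1 median of 5.68 in all columns, served as an alternative; how it was made is not given in the sources used here. Marks for outliers and background are per the file headers, and no spot was saturated.

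Outlier spots (388 to 572 per array) were left out, spots of a probe averaged on the log2 scale, and each array's 75th percentile (753 to 1061 in raw intensity over non-control spots) subtracted. Probes well above background on at least 3 arrays were tested: 20433 probes, 10979 genes. limma 3.58.1 in R 4.3.3 fitted 1 model of 2 groups (prior degrees of freedom 2.60), with Benjamini-Hochberg adjustment and 95% intervals from the moderated spread, unadjusted. The fit was tested on simulated data. Symbols came from RefSeq accessions (GRCr8, names only, since the array was designed on rn4), found for 18005 probes. Tables and plots used Python 3.11.15, pandas 2.3.3, numpy 2.4.6 and matplotlib 3.10.9. Precision is limited by how few arrays there are.

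The members, lists and alternatives were chosen with earlier results of these data known. The rule for named genes took 14 core members whatever their values, the 8 largest rises and falls, the members of each role past the test (the 4 of smallest p where over 5), members with opposed probes and, outside the members, the 6 pathway genes of smallest p; other members are named to account for every one. Normexp used the median spot signal in place of the planned mean signal, which was not used here.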

Additional observations from a re-analysis of the deposited data

How the results depend on the processing

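All 35 member genes past the test kept their sign in every alternative that gave them a value, except Vps25, which turned to -0.14 with the mean of its probes; the all-arrays filter left 33 of them. The median change of members moved to 0.029 under median centring. Members that rose numbered 8 with no filter, 7 with the replicate block and 0 at a 2-fold minimum, where 3 fell. Members that fell numbered 13 in the authors' table and under quantile normalization. Leaving out 1 array gave 0 to 15 rises, 5 to 24 falls and medians of -0.28 to -0.13. Pathway genes that rose numbered 5 under quantile normalization, in the authors' table, with normexp and with the filter on all 6 arrays, and 10 under median centring; those that fell numbered 7 under quantile normalization, median centring and in the authors' table. Leaving out 1 array gave 1 to 4 rises and 2 to 12 falls there. Arrays of the same replicate number did not deviate together (r of -0.09, -0.03 and -0.02), so the numbers were not treated as pairs; with the replicate block 7 members rose and 16 fell. With the scan as a random block (correlation 0.109), 11 rose and 20 fell. Of the 35 calls, 26 were past the test with the same sign under quantile normalization, 35 with normexp and 24 with no filter, and 4 falls and 0 rises passed in all 6 fits that left out an array.

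Dim members such as Stam2, Tspan33 and Cd37 lay near background, where the scaling moves values most. Tspan9 and Vps72, also in the dimmest tertile, moved to -0.67 and -0.66 under quantile normalization. Beside the untreated scan, the exosome arrays were read in other scans, which no fit can separate from the treatment.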
